A study of Mus musculus with 18 samples.

Results

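The primitive erythroid genes described here are 7 genes of the first, yolk sac wave of red blood cell formation: the embryonic globin genes Hbb-bh1, Hbb-y and Hba-x, the transcription factor genes Gata1 and Klf1, the haem synthesis gene Alas2 and the erythropoietin receptor gene Epor. They were chosen by symbol, and each matched 1 probe set with a single symbol, that is 7 of the 20738 distinct symbol entries of the array. Their transcripts were read on Affymetrix Mouse Gene 1.0 ST GeneChips from mouse J1 (129Sv/Jae) embryonic stem cells (ESCs, day 0) and embryoid bodies (EBs) grown from them in hanging drops and harvested at day 4 and day 16. The genotypes compared were ESCs without the maintenance DNA methyltransferase gene (Dnmt1-/-), ESCs without Dnmt1, Dnmt3a and Dnmt3b (TKO) and wild type ESCs (wt), with 2 biological replicates in each of the 9 groups and 18 arrays in all. Each genotype is represented by 1 J1 line and an EB is a mixture of cell types, so that in these bulk samples fewer cells of a type and less RNA per cell cannot be told apart.

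Primitive erythroid cells are the first blood cells of the mouse embryo. They arise from mesoderm that passes through the primitive streak and acquires haemangioblast character in the yolk sac, and EBs form the same lineage in culture. Gata1, a zinc finger factor that binds GATA motifs, and Klf1, which binds CACCC boxes, switch on the globin genes and the genes for haem and the red cell membrane. The embryonic globins fill the cells with haemoglobin and are later replaced by the adult globins when definitive red cells take over.

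The promoters of the members hold the words these factors are known to bind, which is why 4 of them are shown here. The RefSeq windows (GRCm38.p6, 250 bases before to 50 after the annotated start, on the gene's strand) were found for 6 of the 7 members, and each was searched on both strands for the words a GATA factor binds (AGATAA, the word AGATAG, the word TGATAA and the word TGATAG), for the KLF word CACCC, for the CCAAT box (its letters as in its name) and for the TATA box written as TATAAA. All matches are in capitals.
Hbb-y, chr7:103853158-103853457, minus strand: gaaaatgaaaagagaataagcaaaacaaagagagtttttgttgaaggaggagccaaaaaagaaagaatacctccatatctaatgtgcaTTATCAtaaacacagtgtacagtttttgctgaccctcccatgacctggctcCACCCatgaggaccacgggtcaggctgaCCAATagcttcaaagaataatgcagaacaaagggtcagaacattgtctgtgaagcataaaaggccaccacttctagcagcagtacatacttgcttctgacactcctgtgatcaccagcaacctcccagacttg
Hba-x, chr11:32276350-32276649, plus strand: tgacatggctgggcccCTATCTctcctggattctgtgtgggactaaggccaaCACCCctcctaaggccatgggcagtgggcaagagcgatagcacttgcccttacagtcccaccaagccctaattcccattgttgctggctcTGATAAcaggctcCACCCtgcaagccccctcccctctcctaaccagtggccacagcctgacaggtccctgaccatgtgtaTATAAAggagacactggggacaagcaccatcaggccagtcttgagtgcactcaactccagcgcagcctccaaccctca
Alas2, chrX:150547167-150547466, plus strand: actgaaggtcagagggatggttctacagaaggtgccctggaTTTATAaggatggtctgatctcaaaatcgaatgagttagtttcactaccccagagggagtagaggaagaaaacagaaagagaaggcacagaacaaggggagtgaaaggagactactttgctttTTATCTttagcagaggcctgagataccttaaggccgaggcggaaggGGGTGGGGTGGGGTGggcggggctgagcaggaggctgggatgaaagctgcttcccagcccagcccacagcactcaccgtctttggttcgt
Epor, chr9:21963527-21963826, minus strand: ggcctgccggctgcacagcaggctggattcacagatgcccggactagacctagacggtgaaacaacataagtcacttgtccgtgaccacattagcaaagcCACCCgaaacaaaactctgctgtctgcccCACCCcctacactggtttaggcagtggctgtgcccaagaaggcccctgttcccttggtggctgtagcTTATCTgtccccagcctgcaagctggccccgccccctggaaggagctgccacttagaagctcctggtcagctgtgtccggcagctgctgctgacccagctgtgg
Each of these 4 windows, and that of Klf1, held at least 1 GATA word and at least 1 CACCC, while the Gata1 window held 2 CACCC and no GATA word. Both kinds of word were present in 14.9% of all 32851 windows of this length, GATA words in 29.8% and CACCC in 57.5%. The GATA word lay 162 bases before the start in Hbb-y, 234 and 108 bases before it in Hba-x, 86 in Alas2 and 54 in Epor (position of the leftmost base). Hbb-y also held a CCAAT word 83 bases before its start, Hba-x a TATAAA word 28 bases before it, and in Alas2 3 CACCC words on the opposite strand followed each other 40, 35 and 30 bases before the start. These matches are descriptions of the sequence, and no binding was measured.

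The 3 globin genes and Alas2 had their lowest group means in undifferentiated ESCs, whereas Gata1 was lowest in TKO EBs of day 4 (5.38), Klf1 in wt EBs of day 16 (5.20) and Epor in TKO EBs of day 16 (5.72). On the 6 ESC arrays of the 3 genotypes the log2 signals spanned 4.02 to 4.52 for Hbb-bh1, 3.77 to 4.68 for Hbb-y, 5.59 to 6.05 for Hba-x, 5.47 to 5.71 for Gata1, 5.33 to 5.58 for Klf1, 4.22 to 4.92 for Alas2 and 5.83 to 6.25 for Epor. At this stage 0 members were called by limma at 2-fold and an adjusted p under 0.05 in any genotype comparison. Of all probe sets, 0.355% were called in Dnmt1-/- against wt, 0.304% in TKO against wt and 0.00563% in TKO against Dnmt1-/-. At an unadjusted p under 0.05 the count of members was also 0 in each of these comparisons. With 2 arrays a group this does not show that ESC levels were alike. On EB arrays Hbb-y and Hba-x exceeded every ESC array on 12 of 12 arrays, Hbb-bh1 and Alas2 on 10, Epor on 7, Gata1 on 5 and Klf1 on 2. The share over all probe sets was not computed for these counts.

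**Figure D1:**
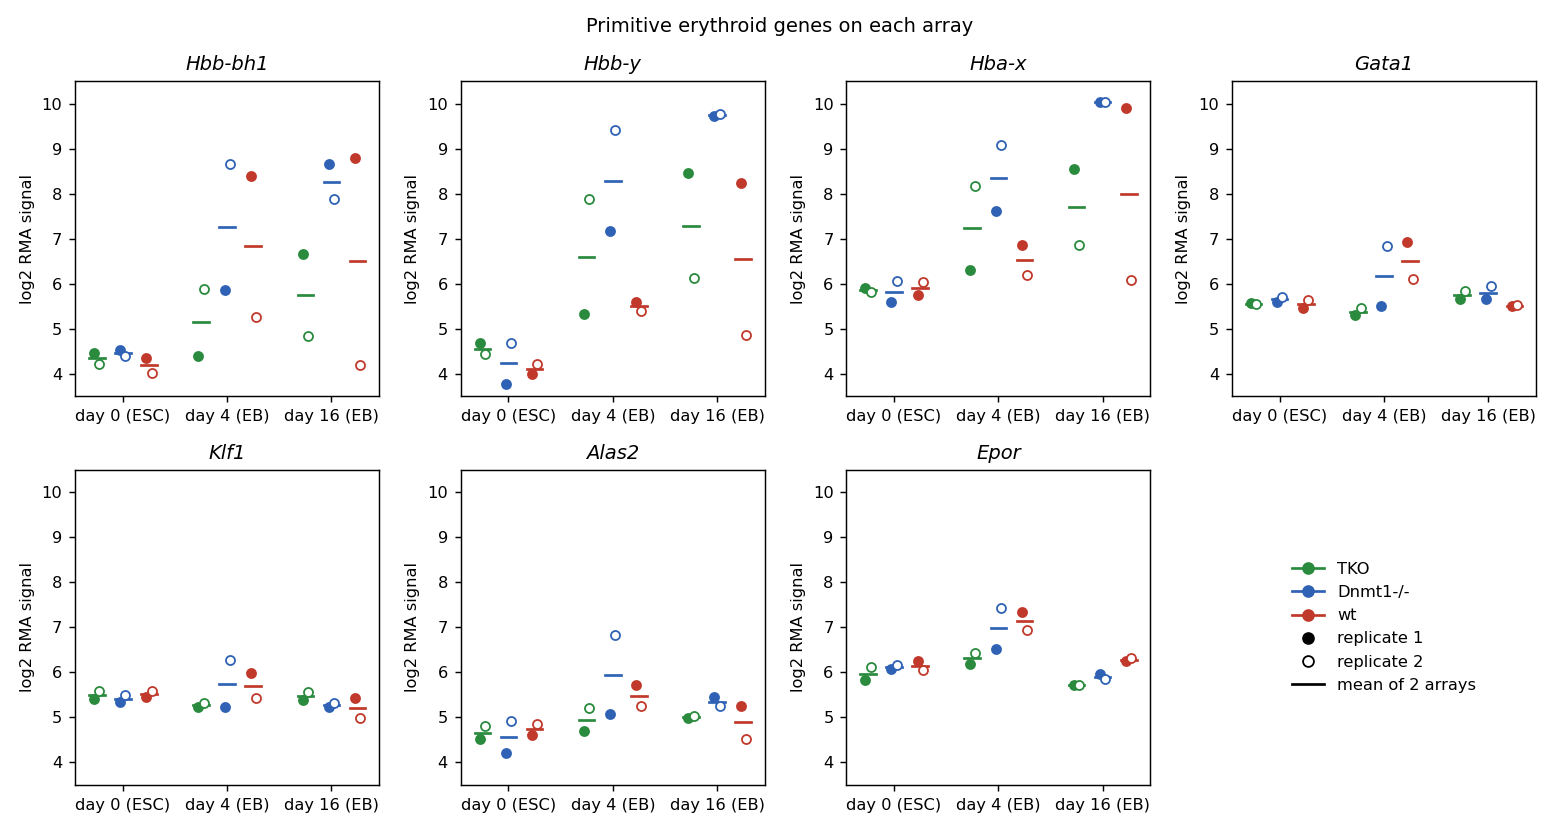
Log2 RMA signal of each gene (vertical axis) on each of the 18 arrays, by day and genotype (TKO, Dnmt1-/-, wt within each day), with replicate 1 filled, replicate 2 open and a bar at the mean of 2 arrays. The 3 globin genes spread widely on EB arrays (up to 10.04 for Hba-x), while Gata1, Klf1, Alas2 and Epor have their highest values at day 4.

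Hbb-y, the epsilon-y embryonic beta-like globin, had the widest range of the 7 genes, 6.0 log2 units over the 18 arrays. In ESCs its log2 signals were 3.77 and 4.68 in Dnmt1-/-, 4.68 and 4.44 in TKO and 4.00 and 4.22 in wt cells. In day 4 EBs they were 7.16 and 9.41 in Dnmt1-/-, 5.33 and 7.87 in TKO and 5.60 and 5.40 in wt, and in day 16 EBs 9.72 and 9.77 in Dnmt1-/-, 8.45 and 6.12 in TKO and 8.23 and 4.87 in wt. Every EB array was thus above every ESC array, both day 16 Dnmt1-/- arrays were above all the others, and the lowest EB array was the second wt replicate of day 16. In Dnmt1-/- EBs Hbb-y rose by 4.06 log2 units (SE 1.09, limma adjusted p = 0.0351) at day 4 against day 0, where it was 1 of 7 members called higher against 2.56% of all probe sets. At day 16 against day 0 it rose by 5.52 (SE 1.09, adjusted p = 0.00419), together with Hba-x, so that 2 of 7 members were called higher against 4.8% of all probe sets. The day 16 rise of Hbb-y was called under all alternatives that were run, whereas the day 4 rise was 2.94 (adjusted p = 0.303) without the second Dnmt1-/- replicate of day 4, 3.6 (adjusted p = 0.171) without the first Dnmt1-/- ESC array and 4.51 (adjusted p = 0.0923) without the second. The rises of Hbb-y at day 16 against day 0 did not pass in TKO (2.72, SE 1.09, adjusted p = 0.212) or in wt EBs (2.44, SE 1.09, adjusted p = 0.140).

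Hba-x, the zeta globin gene that supplies the embryonic alpha-like chain, reached the highest signals of its own range in the same samples. Its log2 signals in ESCs were 5.59 and 6.05 in Dnmt1-/-, 5.90 and 5.80 in TKO and 5.75 and 6.04 in wt. In EBs they were 7.62 and 9.08 in Dnmt1-/-, 6.31 and 8.17 in TKO and 6.86 and 6.19 in wt at day 4, and 10.03 and 10.04 in Dnmt1-/-, 8.54 and 6.86 in TKO and 9.90 and 6.08 in wt at day 16. The 2 Dnmt1-/- arrays of day 16 were the closest pair, and the first wt replicate of that day stood just below them while the second stood just above the highest ESC array. Hba-x rose by 4.22 log2 units (SE 0.99, limma adjusted p = 0.0110) in Dnmt1-/- EBs at day 16 against day 0. The size stayed between 3.99 and 4.45 without any 1 of the 4 arrays, but the adjusted p was 0.0630 without the first ESC array, 0.0598 without the first and 0.0557 without the second day 16 array. The changes over the same interval were 1.85 (SE 0.99, adjusted p = 0.399) in TKO and 2.10 (SE 0.99, adjusted p = 0.162) in wt EBs.

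Hbb-bh1, the other embryonic beta-like globin gene, passed in no comparison although single arrays were far above the ESCs. Its log2 signals in ESCs were 4.52 and 4.39 in Dnmt1-/-, 4.46 and 4.23 in TKO and 4.36 and 4.02 in wt. In EBs they were 5.87 and 8.65 in Dnmt1-/-, 4.40 and 5.87 in TKO and 8.40 and 5.26 in wt at day 4, and 8.65 and 7.88 in Dnmt1-/-, 6.66 and 4.84 in TKO and 8.78 and 4.20 in wt at day 16. Hbb-bh1 was above 8 on 4 EB arrays, 2 of them wt, and inside the ESC range on the first TKO array of day 4 and the second wt array of day 16. Its mean difference at day 16 against day 0 was 3.81 log2 units in Dnmt1-/- (SE 1.35, limma adjusted p = 0.0775), and both day 16 arrays were above both ESC arrays. It differs from Hbb-y in the first wt replicate of day 4, where it stood at 8.40 and Hbb-y at 5.60.

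In the order of group means the Dnmt1-/- EBs of day 16 were first and those of day 4 next for each of the 3 globin genes, and the 3 ESC groups were last. For Hbb-y the mean was 9.74 ± 0.04 (SD, n = 2) in Dnmt1-/- EBs of day 16 and 8.29 ± 1.59 in those of day 4. The TKO EBs of day 16 averaged 7.28 ± 1.65 and those of day 4 6.60 ± 1.80, and the wt EBs of day 16 averaged 6.55 ± 2.38 and those of day 4 5.50 ± 0.14. All neighbours in this order from the day 4 Dnmt1-/- group down to the wt day 16 group lay within 1 SD of each other. The SD exceeded 1 in 4 of the 6 EB groups, so that the replicates of these groups did not match in Hbb-y.

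**Figure D2:**
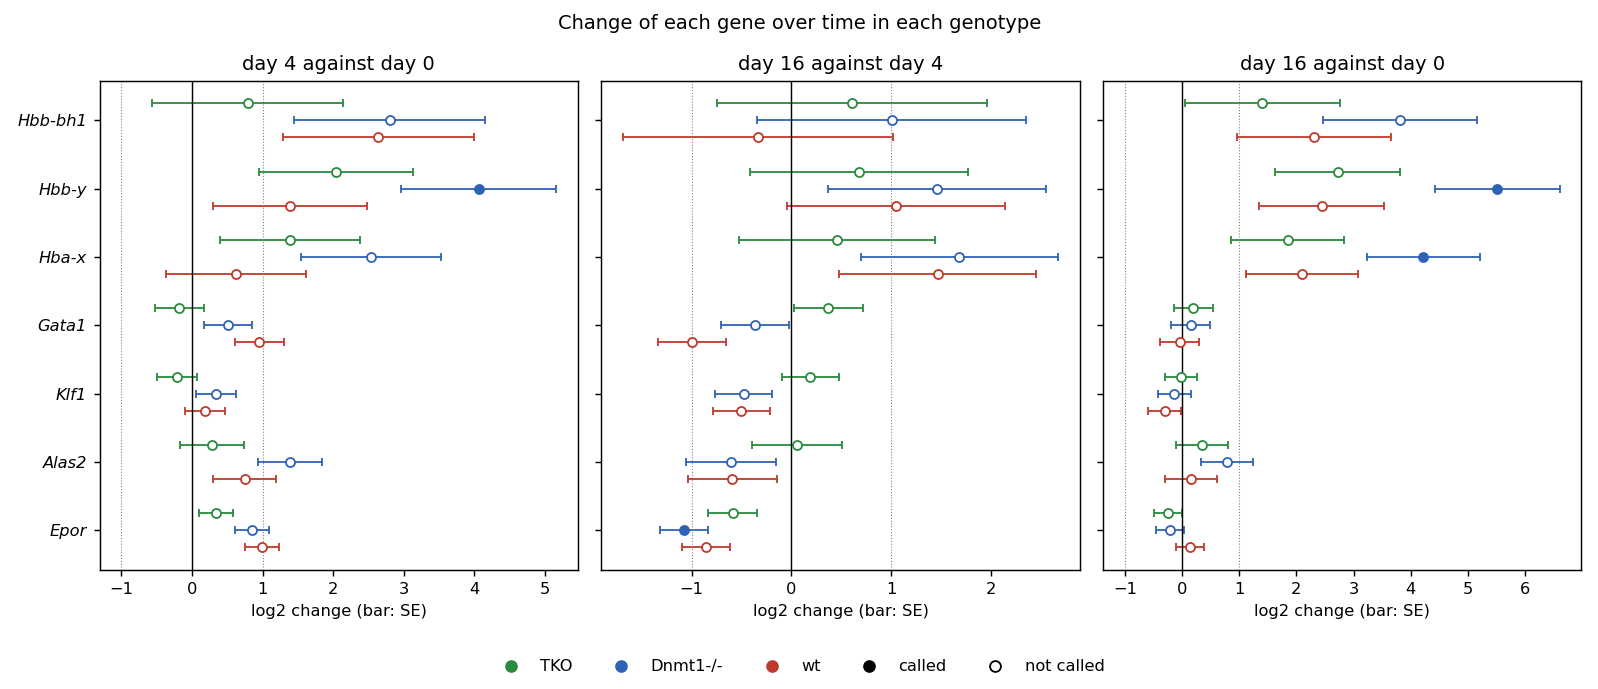
Log2 change of each gene with its standard error from limma (horizontal axis) at day 4 against day 0, day 16 against day 4 and day 16 against day 0, in TKO, Dnmt1-/- and wt, with filled points for changes past 2-fold and an adjusted p of 0.05 and dotted lines at 2-fold. The filled points are Hbb-y at day 4 and day 16 and Hba-x at day 16 against day 0, and Epor at day 16 against day 4, all in Dnmt1-/-.

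Epor, which encodes the receptor through which erythropoietin keeps erythroid progenitors alive, followed another course than the globins. Its log2 signals in ESCs were 6.08 and 6.15 in Dnmt1-/-, 5.83 and 6.11 in TKO and 6.25 and 6.05 in wt. At day 4 they were 6.51 and 7.43 in Dnmt1-/-, 6.19 and 6.44 in TKO and 7.34 and 6.95 in wt EBs, and at day 16 5.96 and 5.85 in Dnmt1-/-, 5.72 and 5.73 in TKO and 6.26 and 6.31 in wt EBs. In each genotype both day 4 arrays were above both ESC arrays and both day 16 arrays were below both day 4 arrays. Epor fell by 1.07 log2 units (SE 0.24, limma adjusted p = 0.0222) at day 16 against day 4 in Dnmt1-/- EBs, where it was the 1 member called lower against 0.313% of all probe sets and 0 were called higher against 2.39%. The difference was -0.61 (adjusted p = 0.159) without the second Dnmt1-/- array of day 4, -1.13 (adjusted p = 0.111) without the first and -1.02 (adjusted p = 0.118) without the second array of day 16, and the adjusted p was 0.232 when only the 4 arrays compared were fitted. In wt EBs the change of Epor was 0.99 log2 units at day 4 against day 0 (SE 0.24, adjusted p = 0.0206) and -0.86 at day 16 against day 4 (SE 0.24, adjusted p = 0.0327), which passed the test but not the 2-fold line. Without the second wt array of day 4, the lower of that pair, these values were 1.19 and -1.05.

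Gata1, the lineage factor, had its highest signals on 1 array of each of 2 groups. In ESCs its log2 signals were 5.59 and 5.71 in Dnmt1-/-, 5.57 and 5.55 in TKO and 5.47 and 5.64 in wt. At day 4 they were 5.50 and 6.83 in Dnmt1-/-, 5.31 and 5.45 in TKO and 6.93 and 6.09 in wt EBs, and at day 16 5.66 and 5.94 in Dnmt1-/-, 5.66 and 5.85 in TKO and 5.50 and 5.52 in wt EBs. Both wt arrays of day 4 and 1 of the 2 Dnmt1-/- arrays were above every ESC array, while both TKO arrays were below every ESC array. The wt change of Gata1 was 0.96 log2 units at day 4 against day 0 (SE 0.34, limma adjusted p = 0.112) and -1.0 at day 16 against day 4 (SE 0.34, adjusted p = 0.0768), and neither was called. Without the second wt array of day 4, the lower of that pair, the day 16 against day 4 change was -1.41.

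Klf1, the factor named for its role in erythroid cells, moved the least of the 7 genes, over 1.30 log2 units. Its log2 signals in ESCs were 5.33 and 5.49 in Dnmt1-/-, 5.41 and 5.58 in TKO and 5.45 and 5.58 in wt, and at day 4 5.22 and 6.28 in Dnmt1-/-, 5.23 and 5.33 in TKO and 5.98 and 5.43 in wt EBs. At day 16 they were 5.23 and 5.32 in Dnmt1-/-, 5.38 and 5.56 in TKO and 5.42 and 4.98 in wt EBs. The 2 arrays above the ESC range were the second Dnmt1-/- and the first wt array of day 4, the same arrays on which Gata1 was highest.

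Alas2, the erythroid form of the first enzyme of haem synthesis, was highest on the second Dnmt1-/- array of day 4. Its log2 signals in ESCs were 4.22 and 4.92 in Dnmt1-/-, 4.52 and 4.81 in TKO and 4.61 and 4.85 in wt. At day 4 they were 5.07 and 6.83 in Dnmt1-/-, 4.70 and 5.20 in TKO and 5.72 and 5.24 in wt EBs, and at day 16 5.45 and 5.25 in Dnmt1-/-, 4.99 and 5.03 in TKO and 5.25 and 4.53 in wt EBs. Apart from the first TKO array of day 4 and the second wt array of day 16, all EB arrays were above the ESC range, and all but the second Dnmt1-/- array of day 4 by less than 1 log2 unit. The largest of its 9 mean changes over time was 1.38 in Dnmt1-/- at day 4 against day 0 (SE 0.45, limma adjusted p = 0.0800), which was not called. The first Dnmt1-/- array of day 4 was lower than the second for 7 of 7 members, while 52% of all probe sets were higher on the first. Without this first array the change at day 4 against day 0 was 2.27 for Alas2, 1.18 for Gata1 and 1.31 for Epor. Leaving out the lower array raises the group mean, so these larger changes are no independent support for a rise. Without the same array the changes at day 16 against day 4 were -1.01 for Klf1, -1.48 for Alas2 and -1.53 for Epor.

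In wt EBs 0 of 7 members were called by limma at day 4 against day 0 (4.51% of all probe sets called), at day 16 against day 4 (5.87%) and at day 16 against day 0 (10.8%), with 2, 2 and 1 members at an unadjusted p under 0.05. In TKO EBs the counts were also 0 (3.17%, 1.41% and 2.5%), with 0, 1 and 1 at an unadjusted p under 0.05. By arrays alone, 5 of 7 members had both Dnmt1-/- EB arrays of day 4 above both ESC arrays (22.4% of all probe sets), against 3 in TKO (25.3%) and 6 in wt (23.7%). The median change of the 7 members at day 4 against day 0 was 1.38 log2 units in Dnmt1-/-, 0.34 in TKO and 0.96 in wt, where the medians over all probe sets were -0.02, -0.03 and -0.003. At day 16 against day 0 it was 0.78 in Dnmt1-/-, 0.34 in TKO and 0.16 in wt, with -0.09, -0.01 and -0.07 over all probe sets.

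The EB arrays differed in which members were raised. On the second Dnmt1-/- array of day 4, 6 of 7 members, all but Klf1, were more than 1 log2 unit above the highest ESC array (1.85% of all probe sets), and on the first wt array of that day Hbb-bh1, Gata1 and Epor were (2.26%). On the first Dnmt1-/- and the second TKO array of day 4, and on both Dnmt1-/-, the first TKO and the first wt array of day 16, the 3 globin genes were past this line and the other 4 were not (0.864% to 4.52% of all probe sets). The second TKO array of day 16 had Hbb-y alone, and the first TKO array of day 4, the second wt array of day 4 and the second wt array of day 16 had no member past it. Averaged over the 3 globins, the rise over the mean of the ESC arrays was 4.22 on the second Dnmt1-/- array of day 4 and 4.64 on the first of day 16, whereas the average rise of the other 4 genes on these arrays was 1.40 and 0.12.

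**Figure D3:**
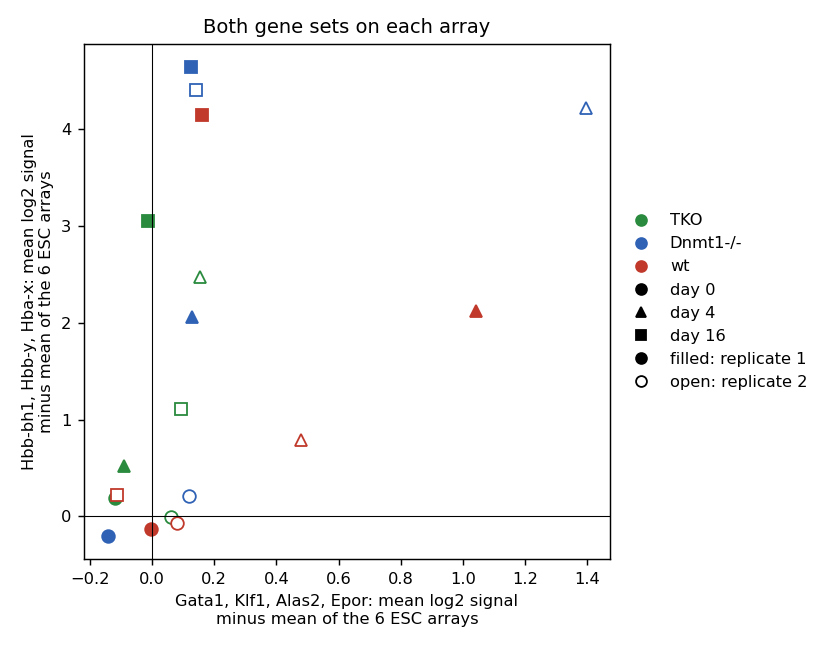
Mean log2 rise of Hbb-bh1, Hbb-y and Hba-x (vertical axis) against that of Gata1, Klf1, Alas2 and Epor (horizontal axis), each over the mean of the 6 ESC arrays, for all 18 arrays, with colour for genotype, shape for day and open symbols for replicate 2. Day 16 arrays reach up to 4.64 on the vertical axis while staying between -0.11 and 0.16 on the horizontal one, and the 2 arrays beyond 1 on the horizontal axis are the second Dnmt1-/- (1.40) and the first wt array (1.04) of day 4.

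Across the 18 arrays the globin genes were most alike among themselves, with Pearson's r of 0.971 for Hbb-y and Hba-x, 0.875 for Hbb-bh1 and Hba-x and 0.836 for Hbb-bh1 and Hbb-y. Gata1 was most alike to Klf1 (0.822), Alas2 (0.776) and Epor (0.734), while r was 0.02 between Hba-x and Epor and 0.07 between Hba-x and Klf1. Hbb-bh1 was less apart, with 0.548 to Gata1, 0.375 to Klf1 and 0.370 to Epor. Alas2 stood between both sets, with 0.762 to Hbb-bh1 and 0.606 to Hba-x. These 21 coefficients are descriptions over arrays that share 3 days and 3 lines.

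At least 1 member differed by 1 log2 unit or more between the replicates in every EB group except the Dnmt1-/- EBs of day 16. In wt EBs of day 16 the first array exceeded the second by 4.58 log2 units for Hbb-bh1, 3.37 for Hbb-y and 3.82 for Hba-x, and differences of at least 1 in this direction were found for 1.77% of all probe sets. In TKO EBs of day 16 the first array was higher by 1.82, 2.33 and 1.69 for the same genes (2.69% of all probe sets at 1 or more). Between the wt arrays of day 16 the same difference was 0.72 for Alas2, 0.44 for Klf1, -0.02 for Gata1 and -0.05 for Epor.

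At day 4 the replicates differed in all 7 genes in the same sense within each genotype. The second Dnmt1-/- array was higher than the first for 7 of 7 members, while 52% of all probe sets were higher on the first. For 6 members the difference was at least 1 (1.86% of all probe sets). First minus second, it was -2.78 for Hbb-bh1, -1.76 for Alas2 and -0.92 for Epor. The second TKO array was higher for 7 of 7 members, while 53.7% of all probe sets were higher on the first. The 3 globins differed by at least 1 (0.679% of all probe sets). In wt it was the first array that was higher for 7 of 7 (46.9% of all probe sets), 1 of them, Hbb-bh1, by at least 1 (2.55%). In ESCs and in Dnmt1-/- EBs of day 16 no member differed by 1 or more.

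**Figure D4:**
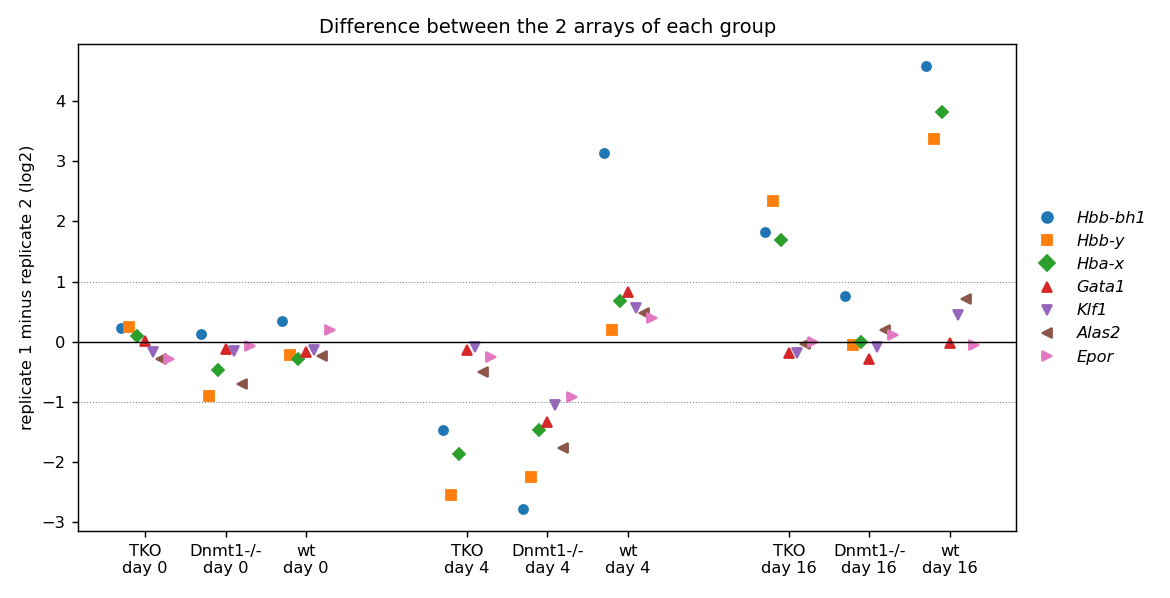
Log2 signal of replicate 1 minus that of replicate 2 (vertical axis) for each of the 7 genes in each group, with dotted lines at a difference of 1. Points lie below 0 in TKO and Dnmt1-/- EBs of day 4, above 0 in wt EBs of day 4, and the globins stand apart in wt and TKO EBs of day 16 (up to 4.58 for Hbb-bh1 in wt).

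Marker genes of other cell states moved between the same replicates. In Dnmt1-/- EBs of day 4 the first array, low in erythroid genes, was higher by at least 1 log2 unit for 5 of 8 measured genes of the primitive streak and early mesoderm and for 8 of 11 pluripotency genes (1.43% of all probe sets). The linear signals of these lists summed to 4191 on the first and 2554 on the second array for the streak genes and to 10160 and 3485 for the pluripotency genes. The streak factor Mixl1 had 10.14 on the first and 7.86 on the second array, Mesp1 8.34 and 5.76, and the pluripotency factor gene Nanog 10.04 and 8.07. In wt EBs of day 4 the second array, low in erythroid genes, was the higher one for 8 of 8 streak genes. Over all probe sets 46.9% were higher on the first array. The summed signals of the streak genes were 2516 on the first and 3921 on the second array. The pluripotency sums were 3145 and 4054, but 6 of 11 genes were higher on the first array (46.9% of all probe sets). In TKO EBs of day 4 the streak list was higher on the first array for 5 of 8 genes (53.7% of all probe sets), with sums of 1720 and 1548, while the pluripotency sum was lower on the first, erythroid-low array (15069) than on the second (17879). The part of these differences in the erythroid values was not tested.

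For the day 16 wt pair, the haemangioblast and endothelial signals summed to 2367 on the first and 1920 on the second array. The sums were 2266 and 2432 for the macrophage list and 23242 and 22303 for the visceral endoderm and liver list. They were 1587 and 1839 for the streak list and 3389 and 2534 for the pluripotency list. All 11 pluripotency genes were higher on the first array (47.3% of all probe sets). For the 3 globin genes the same arrays differed by 3.37 to 4.58 log2 units. Of the endothelial list, 10 of 12 genes were higher on the first array, against the same share. Whether the endothelial and pluripotency differences bear on the globins was not tested.

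The genotypes were then compared on each day. No member was called by limma in any genotype comparison, which is 0 of 7 at day 4 for Dnmt1-/- against wt (0.738% of all probe sets called), TKO against Dnmt1-/- (0.848%) and TKO against wt (2.92%), and 0 of 7 at day 16 for Dnmt1-/- against wt (2.89%), TKO against Dnmt1-/- (1.07%) and TKO against wt (5.83%). At an unadjusted p under 0.05 the counts in these 6 comparisons were 1, 3, 2, 1, 2 and 1. Misses of the threshold with 2 arrays a group do not show that levels were alike.

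Hbb-y had the largest mean difference of the 7 genes between Dnmt1-/- and wt EBs. At day 16 both Dnmt1-/- arrays, at 9.72 and 9.77, were above both wt arrays, at 8.23 and 4.87, with a difference of 3.19 log2 units (SE 1.09, limma adjusted p = 0.135). At day 4 the difference was 2.79 (SE 1.09, adjusted p = 0.682), again with both Dnmt1-/- arrays above both wt arrays. The day 16 difference rests on which wt array is used. Without the first, globin-high wt array it was 4.88 for Hbb-y and 3.95 for Hba-x. The first wt array itself stood at 8.23 for Hbb-y, against 9.72 and 9.77 in Dnmt1-/-. For Hba-x it stood at 9.90, against 10.03 and 10.04, so that little difference is left there. Conversely, the rise of wt EBs at day 16 against day 0 was larger without the second, globin-low wt array of day 16. It was then 4.59 for Hbb-bh1, 4.13 for Hbb-y and 4.01 for Hba-x.

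At day 4 the means of Gata1 and Epor were lower in TKO than in wt EBs, and neither difference was called. Gata1 averaged 5.38 ± 0.10 in TKO and 6.51 ± 0.59 in wt EBs (SD, n = 2 each), a difference of -1.13 log2 units (SE 0.34, limma adjusted p = 0.0873), and Epor 6.31 ± 0.17 in TKO and 7.14 ± 0.27 in wt, a difference of -0.83 (SE 0.24, adjusted p = 0.0738). Both TKO arrays were below both wt arrays for 4 of 7 members, Gata1, Klf1, Alas2 and Epor, against 25.7% of all probe sets. Without the second wt array of day 4, the lower of that pair, the Gata1 difference was -1.55. Against Dnmt1-/- EBs of day 4, TKO EBs differed by -0.78 for Gata1, -1.0 for Alas2 and -0.66 for Epor. The limma adjusted p values were 0.454, 0.481 and 0.302. Without the first Dnmt1-/- array, the lower of that pair, the differences were -1.45, -1.88 and -1.12. At day 16 both TKO arrays were below both Dnmt1-/- arrays for 5 of 7 members, the 3 globins, Alas2 and Epor (17.4% of all probe sets), with differences of -2.52 for Hbb-bh1, -2.46 for Hbb-y and -2.34 for Hba-x (limma adjusted p = 0.444, 0.339 and 0.310). For 1 member, Klf1, both TKO arrays (5.38 and 5.56) were above both Dnmt1-/- arrays (5.23 and 5.32), against 23.8% of all probe sets.

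The differences between genotypes in the change over time were tested as interaction terms. No member passed in any of the 6. Of all probe sets, 0%, 0.884% and 1.37% passed for Dnmt1-/- against wt at day 4 against day 0, day 16 against day 4 and day 16 against day 0, and 1.38%, 2.89% and 3.91% for TKO against wt over the same intervals. Among the members, at an unadjusted p under 0.05 there were 2 cases, both of Gata1 in TKO against wt. The change of Gata1 at day 4 against day 0 was lower in TKO than in wt by 1.13 log2 units (interaction -1.13, SE 0.48, limma adjusted p = 0.423), and its change at day 16 against day 4 was higher by 1.37 (SE 0.48, adjusted p = 0.178). For Hbb-y the Dnmt1-/- change at day 16 against day 0 exceeded the wt change by 3.07 (SE 1.55, adjusted p = 0.552).

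**Figure D5:**
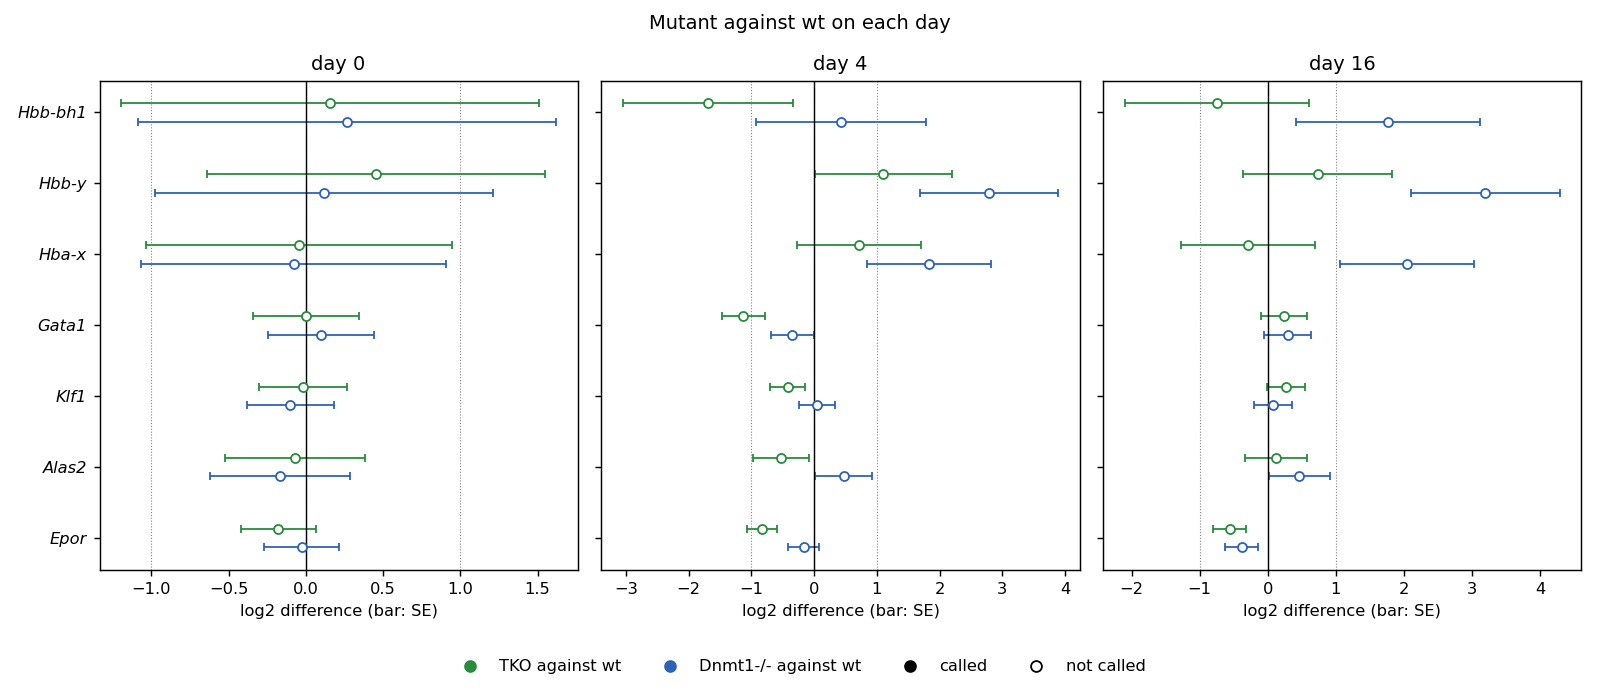
Log2 difference of each gene with its standard error from limma (horizontal axis) for TKO against wt and Dnmt1-/- against wt on day 0, day 4 and day 16, with dotted lines at 2-fold. All points are open, since none passed, and the widest gaps are those of Hbb-y in Dnmt1-/- at day 4 (2.79) and day 16 (3.19).

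Of the other globins, the 2 adult alpha genes share 1 probe set (Hba-a2;Hba-a1) and the adult beta genes another, so that single adult genes could not be told apart, and whether probes of 1 globin also bind transcripts of the others was not tested. The Hba-a2;Hba-a1 log2 signals at day 16 were 9.26 and 9.12 in Dnmt1-/-, 7.79 and 6.74 in TKO and 9.51 and 6.69 in wt EBs, while the ESC arrays lay between 5.64 and 6.21. They rose at day 16 against day 0 by 3.23 (SE 0.69, limma adjusted p = 0.00682) in Dnmt1-/- and by 2.30 (SE 0.69, adjusted p = 0.0292) in wt EBs, and the same wt array as for Hba-x was the low one. The adult beta probe set (Hbb-bt;Hbb-bs;Hbb-b2;Hbb-b1) was not called, with 0.80 in Dnmt1-/- (adjusted p = 0.136) and 0.89 in wt (adjusted p = 0.0778). Hbb-bh2, Hbq1a and Hbq1b were not called in any comparison.

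Of 15 further erythroid transcription factor genes, 4 were called higher and 1 lower at day 4 against day 0 in Dnmt1-/- EBs (2.56% and 2.05% of all probe sets). In TKO EBs 1 was called higher (2.27%), and in wt EBs 4 were called higher and 1 lower (2.43% and 2.08%). Lmo2, the bridging partner of Gata1 and Tal1, rose by 1.69 in Dnmt1-/- (SE 0.28, limma adjusted p = 0.00211), 1.05 in TKO (adjusted p = 0.0440) and 2.03 in wt (adjusted p = 0.000640). Zfpm1, the cofactor that binds Gata1, rose by 1.55 in Dnmt1-/- (SE 0.19, adjusted p = 0.000411) and 1.38 in wt (adjusted p = 0.000775). Gata2, which precedes Gata1 in progenitors, rose by 1.64 in Dnmt1-/- (adjusted p = 0.0237) and 1.43 in wt (adjusted p = 0.0451), and Klf3, a CACCC-binding repressor, fell by 1.16 in Dnmt1-/- (adjusted p = 0.000481) and by 1.51 in wt (adjusted p = 7.5e-05).

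Runx1, required for definitive blood, was lower in TKO EBs than in the other genotypes at day 4. Its day 4 log2 signals were 6.85 and 8.47 in Dnmt1-/-, 5.44 and 5.78 in TKO and 8.17 and 7.47 in wt EBs, with both TKO arrays below the rest. The difference of Runx1 between TKO and wt EBs was -2.21 log2 units (SE 0.40, limma adjusted p = 0.00600) at day 4 and -1.71 (adjusted p = 0.0132) at day 16, and that between TKO and Dnmt1-/- EBs of day 4 was -2.05 (adjusted p = 0.0291). Zfpm1 was also lower in TKO than in Dnmt1-/- EBs at day 4 (-1.10, adjusted p = 0.0184). Bcl11a, a repressor of embryonic globins, was lower at day 16 in Dnmt1-/- (-1.58, adjusted p = 0.00346) and in TKO (-1.54, adjusted p = 0.00190) than in wt EBs.

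Calls among further genes of the red cell programme are given with the shares over all probe sets. Of 16 measured genes of haem synthesis and iron handling, 0 were called higher by limma in any time or genotype comparison. At most 4 were higher at an unadjusted p under 0.05. The share of all probe sets called higher was at most 6.17% (wt, day 16 against day 0), so 0 of 16 does not set this list apart. The calls were lower ones for Urod, a haem pathway enzyme, in wt at day 16 against day 4 (-1.02, limma adjusted p = 0.0139), for Slc25a38, a mitochondrial glycine carrier, in wt at day 16 against day 0 (-1.16, adjusted p = 0.000476) and for Steap3, a ferrireductase, in Dnmt1-/- at day 4 against day 0 (-1.06, adjusted p = 0.0226). In these comparisons 1.93%, 4.62% and 2.05% of all probe sets were called lower. Among 16 measured genes of the red cell membrane, Gypc, a glycophorin, rose at day 16 against day 0 by 1.27 in Dnmt1-/- (adjusted p = 0.0116) and 1.5 in wt (adjusted p = 0.00270) and was lower in TKO than in wt EBs of day 16 (-1.89, adjusted p = 0.00106). Rhd, an Rh blood group protein, fell by 1.10 in Dnmt1-/- (adjusted p = 0.00123) and by 1.58 in wt EBs (adjusted p = 4.8e-05) over the same interval. Car2, a carbonic anhydrase gene, rose by 2.86 in TKO EBs at day 4 against day 0 (limma adjusted p = 0.00299), the 1 call of this list there (3.17% of all probe sets called).

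Beside Epor, 11 genes of erythropoietin and Kit signalling, from ligands to target genes, were measured, many of which other receptors also use. Jak2, the kinase bound to the receptor, rose at day 4 against day 0 by 1.32 in Dnmt1-/- (limma adjusted p = 0.0273), 1.31 in TKO (adjusted p = 0.0389) and 1.43 in wt (adjusted p = 0.0184). Stat5b, the factor Jak2 activates, rose by 1.21 in Dnmt1-/- (adjusted p = 0.0129) and 1.27 in wt (adjusted p = 0.0101). Pim1, a target gene of this pathway, fell by 1.88 in Dnmt1-/- (adjusted p = 9.3e-05), by 1.06 in TKO (adjusted p = 0.00433) and by 2.11 in wt (adjusted p = 2.6e-05), and Socs3, a feedback inhibitor, fell by 1.85 in Dnmt1-/- (adjusted p = 0.000267), by 1.87 in TKO (adjusted p = 0.000509) and by 1.51 in wt (adjusted p = 0.000849). Kit, the receptor for stem cell factor, rose by 1.57 in Dnmt1-/- EBs at day 16 against day 4 (adjusted p = 0.0142).

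Megakaryocytes share Gata1 and a progenitor with red cells. Of 7 measured megakaryocyte genes, 3 were called higher at day 16 against day 0 in Dnmt1-/- (4.8% of all probe sets), 1 in TKO (1.87%) and 3 in wt EBs (6.17%). Pf4, a platelet chemokine gene, averaged 6.56 in Dnmt1-/-, 5.39 in TKO and 7.67 in wt EBs of day 16, with differences of -1.11 for Dnmt1-/- against wt (SE 0.23, limma adjusted p = 0.0138) and -2.28 for TKO against wt (SE 0.23, adjusted p = 3.2e-05). The list did not move as one. Itgb3 had 7.90 and 7.97 in Dnmt1-/-, 8.14 and 8.10 in TKO and 7.52 and 7.72 in wt EBs of day 16. Vwf had 6.34 and 6.38 in TKO and 5.73 and 5.87 in wt EBs of that day. Of 12 haemangioblast and endothelial genes, 5 were called higher in Dnmt1-/-, 3 in TKO and 5 in wt EBs over the same interval, against the same shares.

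The 10 genes whose profile was most like the mean of the 7 members, among 5472 genes whose group means spanned at least 1 log2 unit, were Mest (r = 0.873), Daam1 (0.860), Rab3il1 (0.856), Slc18a2 (0.849), Ubash3b (0.848), Sfxn4 (0.848), Cd55 (0.844), Mob1b (0.842), Dennd5b (0.839) and Zswim8 (0.836), over 18 arrays. Each was highest on a Dnmt1-/- EB array, the second of day 4 or the first of day 16. The genes were picked for likeness to the mean profile, so shared peaks largely follow from that choice. The members were averaged without scaling, so the globins, which had the widest ranges, weigh most in this mean. The coefficients are descriptions over arrays that share genotype, day and normalization.

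The series as a whole set these values against 35512 probe sets on each array. The 2 arrays of a group correlated at 0.981 to 0.991 and array medians lay between 5.77 and 5.90. Dnmt1 signals were 8.45 to 8.86 in Dnmt1-/-, 8.40 to 8.75 in TKO and 9.16 to 9.77 in wt samples, without overlap between mutants and wt. Dnmt3a signals were 6.45 to 7.65 in TKO samples, below all the other arrays. Dnmt3b signals in TKO were 7.33 and 7.45 in ESCs, against 9.80 on the lower of the wt ESC arrays, but rose by 1.35 at day 4 against day 0 (SE 0.24, limma adjusted p = 0.00561), and at day 16 they were 7.52 and 7.71, above the 7.16 and 7.41 of wt EBs, which goes against the direction of the TKO label for this gene on that day. Which part of each transcript the probes cover was not checked here, so these signals cannot check the deletions themselves. At day 16, 5 of 11 pluripotency genes were called higher in Dnmt1-/- (1.53% of all probe sets) and 9 of 11 in TKO against wt EBs (2.4%), and 8 of 12 macrophage genes were called lower in Dnmt1-/- (1.36%) and 8 of 12 in TKO (3.43%). The part of these marker differences in the erythroid values was not tested.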

How the data were processed

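RNA from 18 samples (wt, Dnmt1-/- and TKO, days 0, 4 and 16, 2 biological replicates each) was hybridised by the authors to 1-colour Affymetrix GeneChip Mouse Gene 1.0 ST arrays. The values are log2 signals per probe set that the authors computed with RMA, which corrects background, normalizes across arrays and summarises probes, and deposited. RMA version and probe filter: not given in the sources used here. All 35512 probe sets were used as deposited, and probe sets were named from the platform annotation (21789 with 1 symbol, 1621 with several, 12102 with none).

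Group means of all 18 arrays were fitted by empirical Bayes linear models (R 4.3.3, limma 3.58.1). A call needed a log2 change of at least 1 and a Benjamini-Hochberg adjusted p under 0.05 over all probe sets of a comparison. The 24 comparisons were 9 between days, 9 between genotypes and 6 differences of change against wt. SE is that of limma, SD is over 2 arrays, and the number of arrays limits the precision. Text values of all 7 members are given. From 11 further lists, the called genes with the largest changes and the partners of members are named, and the 10 genes most like the mean member profile. Members and lists were chosen with earlier results of these data known. The fit was tested on simulated data. Alternatives were array medians subtracted, quantile normalization, a filter on the lowest 30% of probe sets, a replicate block, eBayes with trend and robust variance, adjustment over all comparisons, a fit of only the arrays compared, and leaving out each array.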

Additional observations from a re-analysis of the deposited data

How the results depend on the processing

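The count of members called was recomputed in 24 comparisons under 7 alternatives, and 164 of the 168 counts stayed within 1.5 times the main count, without a change of direction of any called member. With the false discovery rate taken over all comparisons, 0 members were called at day 4 against day 0 in Dnmt1-/- in place of 1. With only the arrays compared in the fit, which leaves fewer samples to estimate the spread, 1 member was called in wt at day 4 against day 0 in place of 0, and 0 in Dnmt1-/- at day 4 against day 0 and at day 16 against day 4 in place of 1 each. The wt gain was Hbb-y (1.39, adjusted p = 0.0214), and Hbb-bh1 was also called in Dnmt1-/- at day 16 against day 0 there (3.81, adjusted p = 0.00422).

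Leaving out 1 array at a time assumes that the lone array left varies like the other groups. In wt the counts then ranged from 0 to 1 at day 4 against day 0, 0 to 2 at day 16 against day 4 and 0 to 3 at day 16 against day 0. In Dnmt1-/- they ranged from 0 to 4, 0 to 3 and 1 to 2 over the same intervals. They ranged from 0 to 3 for TKO against Dnmt1-/- at day 4, 0 to 1 for TKO against wt at day 4 and 0 to 2 for Dnmt1-/- against wt at day 16. In the other comparisons the count stayed at 0.

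With the replicate number as a block the members called were again 1 at day 4 against day 0, 1 at day 16 against day 4 and 2 at day 16 against day 0 in Dnmt1-/-, and 0 elsewhere. The replicate differences of 36 pairs of groups correlated at 0.0409 to 0.501, with 32 over 0.1 and 0 below 0. The study ran independent experiments, but the sources used here do not tie the replicate numbers to them. Over all probe sets the block moved the count of calls by more than 1.5 times for TKO against wt at day 0 (179 against 108 without it), TKO against Dnmt1-/- at day 0 (4 against 2) and the differences of change at day 4 against day 0 for Dnmt1-/- (14 against 0) and TKO (770 against 491). All 7 members passed the filter on low values. With 2 arrays a group, the cause of the replicate differences was not tested.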
